A study of Mus musculus with 6 samples.

Results

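Glucose enters a muscle fibre through facilitative transporters of the SLC2 (GLUT) family and is trapped inside by a hexokinase, which phosphorylates it to glucose 6-phosphate. In skeletal muscle Slc2a4 (GLUT4) is the transporter that insulin and contraction move from internal vesicles to the surface, and Slc2a1 (GLUT1) carries basal uptake in fibres, vessels and many other cells. Slc2a3 (GLUT3) is the high-affinity transporter best known from neurons, and Slc2a2 (GLUT2) the low-affinity transporter of liver, gut, kidney and pancreatic islets. Hk1 encodes hexokinase I, the broadly expressed isoenzyme, and Insr the receptor through which insulin acts on Slc2a4. These 6 genes were taken by symbol from the platform annotation, 1 probe each, out of 203 annotated genes on 223 probes.

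The arrays measured soleus, a calf muscle rich in slow fibres, from C57Bl/6 mice that had undergone hindlimb suspension, so that the hind legs bore no load. The sample titles carry the marks HUR, wt and HS7, which the labels do not explain. Per the labels, RNA came from cryosections, which hold vessels, nerve and connective tissue as well as fibres, and 3 microgram of total RNA went to each of 6 arrays. Age and sex are not given and the length of suspension is nowhere spelled out in the sources used here, and unsuspended or reloaded animals were not analysed here. All values below therefore describe 1 group, and no difference between conditions could be tested. Nothing in the labels says that the arrays came from separate animals, so the spread between them, and every p-value below, may be partly technical. In such bulk RNA, fewer cells of a type and less RNA per cell cannot be told apart.

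Summed over probes, deposited intensity was 37.5 on replicate 1 and 15.3 to 18.5 on the rest. The median over all probes was 0.0061 on replicate 1 and 0.0036 to 0.0055 on the rest. The totals thus differed more than the medians. Over the probes above 0 on every array, replicate 1 correlated with the others at r = 0.857 to 0.911, and the other 10 pairs of arrays at 0.957 to 0.977. Results that rest on replicate 1 are therefore given without it too. Of the muscle fibre markers, all 6 of the 8 that were probed (Myh7, Myh2, Myh1, Myh4, Mb and Des) lay above the array noise everywhere. Of 4 macrophage and immune markers only Il1b and Il6 were probed, and neither was above 0 on all arrays. Cd68 and Ptprc were not probed, so immune cells could not be checked through them. None of the 6 liver and islet markers and none of the 3 nerve markers was probed, so the home tissues of Slc2a2 and Slc2a3 could not be checked through them.

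All 6 genes gave a value above 0 on all 6 arrays, as did 76.7% of all probes. Values had been background-subtracted, so an empty probe scatters around 0, and the size of the most negative value on an array serves here as its noise size. It ran from 0.0005 on replicate 4 to 0.0020 on replicate 1. The 4 transporters exceeded it on every array, and Hk1 and Insr did not, which makes 4 of 6 genes against 60.1% of all probes. The 6 genes were thus detected about as often as the probes at large.

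**Figure D1:**
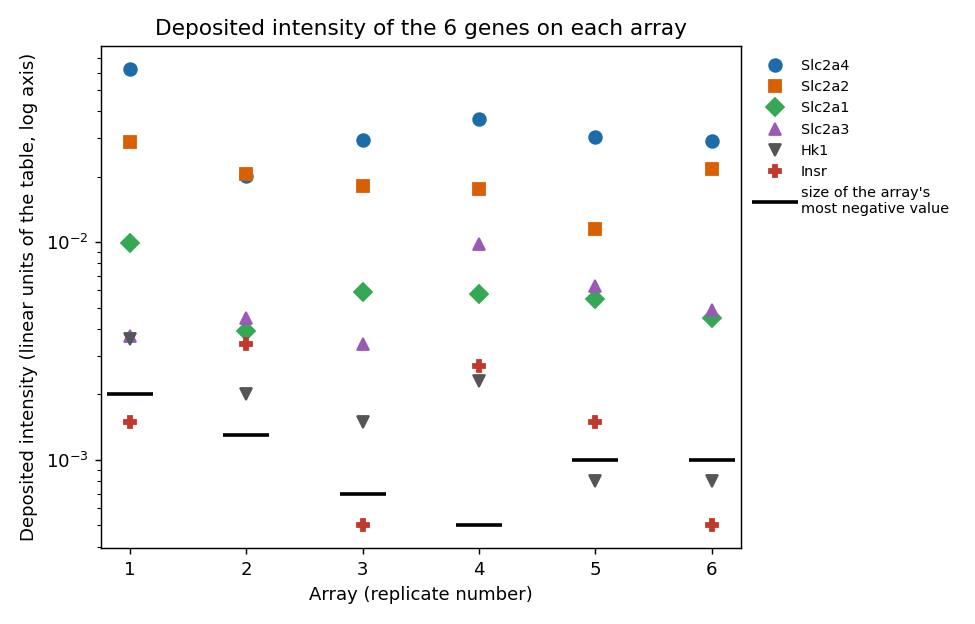
Deposited intensity (log axis, linear units of the table) of the 6 genes on each of the 6 arrays, with a black bar at the size of that array's most negative value. Slc2a4 and Slc2a2 lie far above the bars everywhere, Slc2a1 and Slc2a3 nearer to them, and Hk1 and Insr fall below them on 2 and 3 arrays.

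Slc2a4, the insulin-responsive transporter, gave the brightest of the 6 probes. Its deposited intensity was 0.0625 on replicate 1, 0.0201 on replicate 2, 0.0293 on replicate 3, 0.0369 on replicate 4, 0.0303 on replicate 5 and 0.0290 on replicate 6. Replicate 1 was high, replicate 2 low, and the other 4 lay close together. The lowest of these values was 15.5 times the noise size of its array. Levels below are log2 intensities minus the array's median over the 171 probes above 0 on all arrays, so that a difference of 1 is a factor of 2. On that scale Slc2a4 had a level of 1.94 ± 0.34 (SD, n = 6), with a range from 1.42 to 2.44. Without replicate 1 its SD was 0.27, and without any centring of the arrays 0.54.

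Slc2a1, the basal transporter, had the smallest spread of the 6 genes under median centring. It was deposited at 0.0099 on replicate 1, 0.0039 on replicate 2, 0.0059 on replicate 3, 0.0058 on replicate 4, 0.0055 on replicate 5 and 0.0045 on replicate 6. As with Slc2a4, replicate 1 was the highest and replicate 2 the lowest. The lowest value was 3.0 times the noise size. The level was -0.59 ± 0.25 (SD, n = 6), and 22 of the 171 measured probes had a smaller SD. The small spread depended on the centring, since the SD was 0.46 with the arrays left uncentred, above the 0.43 of Slc2a2, and it was 0.18 without replicate 1.

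Slc2a2, the liver and islet transporter, gave the second brightest of the transporter probes in this muscle RNA. Its intensities were 0.0287, 0.0205, 0.0180, 0.0176, 0.0115 and 0.0216 on replicates 1 to 6. Here replicate 5 was low, and replicate 1, though highest in raw intensity, was not highest once centred. The level ran from 0.49 on replicate 5 to 1.73 on replicate 6, with a mean of 1.16 ± 0.45 (SD, n = 6). On every array the value was at least 11.5 times the noise size. Whether the probe also binds other transcripts was not tested, because the probe sequences were not used here.

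Slc2a3, the high-affinity transporter, had the largest SD among the transporters over all 6 arrays, though not without replicate 1. It was deposited at 0.0037 on replicate 1, 0.0045 on replicate 2, 0.0034 on replicate 3, 0.0098 on replicate 4, 0.0063 on replicate 5 and 0.0049 on replicate 6. The array that was brightest for Slc2a4 and Slc2a1, replicate 1, was among the dimmest for Slc2a3, where it stood at 1.85 times the noise size. The level was -0.74 ± 0.62 (SD, n = 6), from -1.64 on replicate 1 to 0.00 on replicate 4. The SD was 0.49 without replicate 1, as was that of Slc2a2.

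Hk1, the broadly expressed hexokinase, was measured close to background, and hexokinase II was not probed. The intensities of Hk1 were 0.0036, 0.0020, 0.0015, 0.0023, 0.0008 and 0.0008 on replicates 1 to 6. Replicates 5 and 6 were lowest, and there the value was 0.80 times the noise size. The level of -2.42 ± 0.66 (SD, n = 6) therefore lies partly within noise. With the noise size of each array added before the logarithm was taken, the SD fell to 0.42.

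Insr, the insulin receptor, was, like Hk1, near background, and had the largest SD of the 6 genes. It was deposited at 0.0015 on replicate 1, 0.0034 on replicate 2, 0.0005 on replicate 3, 0.0027 on replicate 4, 0.0015 on replicate 5 and 0.0005 on replicate 6. Replicates 1, 3 and 6 did not exceed the noise size, and the lowest ratio to it was 0.50. At 4 decimals, a value of 0.0005 is itself uncertain over 0.29 log2 units through rounding. The level was -2.69 ± 1.11 (SD, n = 6), and 160 of the 171 measured probes had a smaller SD. With the noise size added the SD was 0.67, but such an addition tends to narrow any dim probe, whatever its spread comes from. Because replicates 1, 3 and 6 did not exceed the noise size, much of the spread cannot be told apart from background. Hk1 and Insr have no order of brightness, with a log2 difference of 0.27 ± 1.06 (SD, n = 6) and Hk1 the brighter on 3 of 6 arrays.

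Among the 171 measured probes the median SD was 0.48. The SD of Slc2a1, Slc2a4 and Slc2a2 lay below it and that of Slc2a3, Hk1 and Insr above it. No gene of the 6 had an array farther from the rest than Dixon's ratio allows, against 15.8% of measured probes that did.

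**Figure D2:**
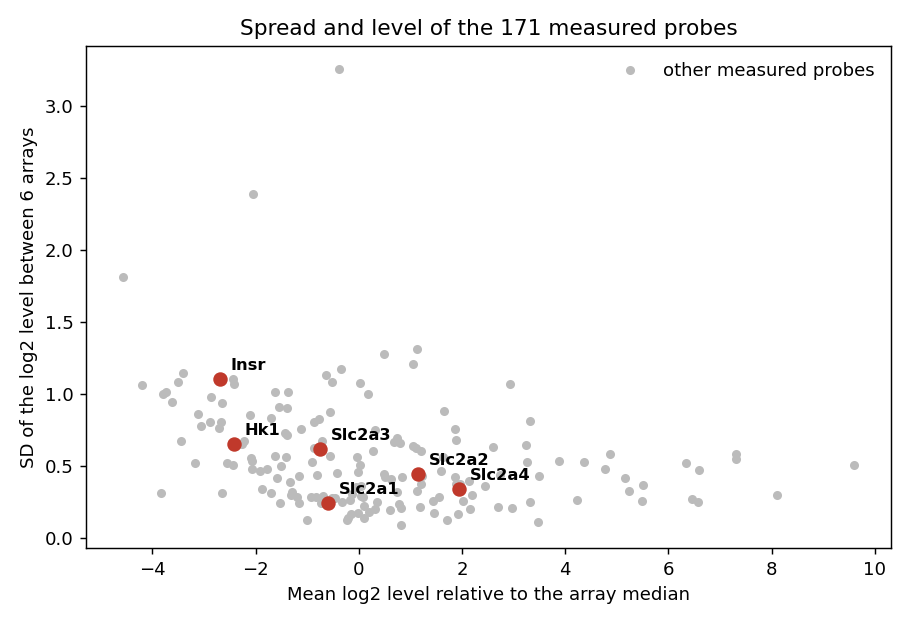
SD of the log2 level between the 6 arrays against its mean relative to the array median, for the 171 measured probes (grey) and the 6 genes (red). Hk1 and Insr sit at the dim end, where many probes spread widely, and Slc2a1 combines a level below the array median with an SD of 0.25.

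The transporter isoforms were then compared within each array, where a brightness shared by all probes of the array cancels. The size of such a difference depends on how well each probe binds and is labelled, so it is no ratio of transcripts, but its constancy between arrays can be read. Slc2a4 and Slc2a1 kept nearly the same distance on every array. Their log2 difference was 2.66 on replicate 1, 2.37 on replicate 2, 2.31 on replicate 3, 2.67 on replicate 4, 2.46 on replicate 5 and 2.69 on replicate 6, with a mean of 2.53 ± 0.17 (SD, n = 6). In deposited intensity the Slc2a4 probe was 4.97 to 6.44 times as bright as the Slc2a1 probe. Of the 14535 pairs that the 171 probes form, 0.79% had a difference with a smaller SD, and the median SD over all pairs was 0.73. This pair had the smallest SD of the 15 pairs among the 6 genes and is singled out for that. Without replicate 1 the SD was 0.17, and 3.29% of all pairs had a smaller one.

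The other isoform differences were looser. Slc2a4 exceeded Slc2a2 by 0.78 ± 0.52 (SD, n = 6) on the log2 scale, and on replicate 2 both were equal to within 0.03. Slc2a4 exceeded Slc2a3 by 2.68 ± 0.80, an SD that dropped to 0.46 without replicate 1, on which the difference was 4.08. Slc2a2 exceeded Slc2a1 by 1.74 ± 0.50 and Slc2a3 by 1.90 ± 0.86, on 6 of 6 arrays each. Slc2a1 and Slc2a3 had no stable order, with a mean difference of 0.16 ± 0.80 and Slc2a1 the brighter on 2 of 6 arrays. Without replicate 1 that mean was -0.10. The order of probe brightness was thus Slc2a4, Slc2a2 and then Slc2a1 with Slc2a3, of which the last 2 did not differ beyond their spread.

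**Figure D3:**
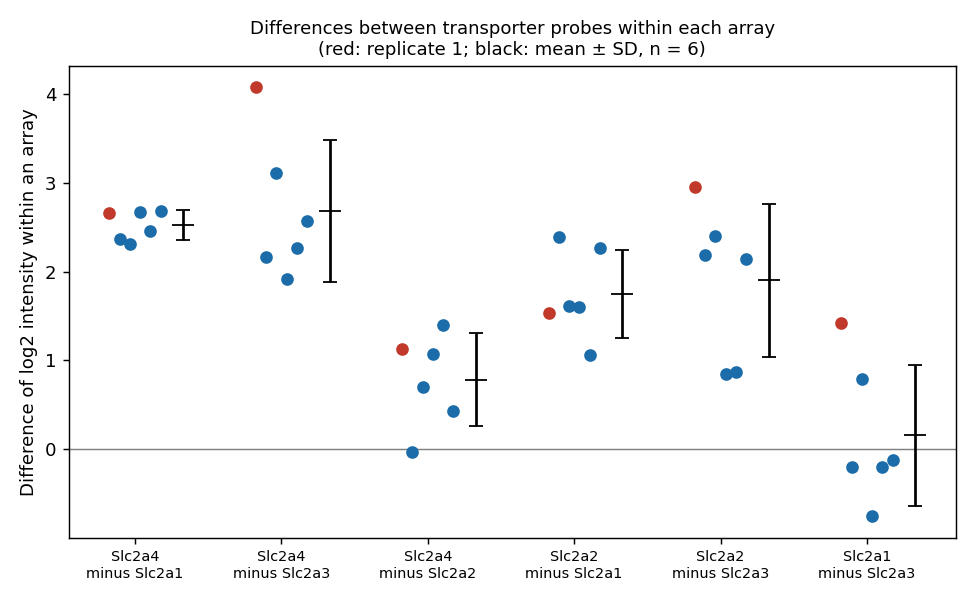
Difference in log2 intensity between the probes of 2 transporters on the same array, for the 6 pairs of isoforms. Each dot is 1 array (replicate 1 in red) and the black bar is the mean ± SD over 6 arrays; the Slc2a4 minus Slc2a1 dots lie between 2.31 and 2.69, and those of Slc2a1 minus Slc2a3 on both sides of 0.

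Correlations over the arrays were computed between each of the 6 genes and every other measured probe, 1005 pairs in all, with exact permutation p-values over the 720 pairings, two-sided, and Benjamini-Hochberg adjustment over the 1005 pairs. No pair (0%) passed an adjusted p of 0.05 by Pearson or by Spearman correlation. The lowest adjusted permutation p was 0.48 by Pearson and 0.56 by Spearman correlation. With 6 arrays the exact Pearson p cannot go below 0.0014, and 28 pairs at that value would have been needed for any to pass. A Spearman correlation of 1.0 had an exact p of 0.0028, so more pairs would have been needed there. By Pearson correlation 98 pairs, 54 positive and 44 negative, had an unadjusted exact p under 0.05. Among every pair of measured probes 11.7% reached that level. For single genes the count was 31 of 170 for Slc2a1, 26 for Slc2a4, 22 for Slc2a3, 8 for Hk1, 7 for Insr and 5 for Slc2a2. Likeness between patterns is therefore given below as a description.

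Among all pairs of measured probes, 11.7% were under an unadjusted exact Pearson p of 0.05. Of the 15 pairs among the 6 genes, Slc2a4 with Slc2a1 alone was. Its Pearson correlation was 0.89 (exact permutation p = 0.029, adjusted 0.49) and its Spearman correlation 0.60 (exact p = 0.24, adjusted 0.71). Both genes were highest on replicate 1 and lowest on replicate 2. With those 2 arrays left out r was 0.11 over the remaining 4, so the correlation rests on them, and without replicate 1 alone it was 0.77. The other 14 pairs had r between -0.69 (Slc2a1 with Insr) and 0.40 (Slc2a3 with Insr), with exact permutation p-values of 0.11 and above and adjusted ones of 0.54 and above. Among them are the other 5 transporter pairs, and each of these changed sign under at least 1 other scaling or with 1 array left out. Slc2a3 with Slc2a4, for example, had r = -0.32 over all arrays and 0.38 without replicate 1.

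For each gene the 3 annotated probes with the highest r were listed. Those of Slc2a4 were Cox4i1 and Cox6a2, subunits of cytochrome c oxidase in the respiratory chain, and Ucp3, a mitochondrial carrier of muscle. The Slc2a4 pattern was closest to Cox4i1, at r = 0.99 (exact permutation p = 0.0042, adjusted 0.48; Spearman 0.94, exact p = 0.017, adjusted 0.56). Without replicates 1 and 2, the arrays farthest from the Slc2a4 median, r was 0.94. Cox4i1 was deposited at 0.2765, 0.1057, 0.1515, 0.1841, 0.1438 and 0.1427 on replicates 1 to 6, which was between 4.42 and 5.26 times the Slc2a4 value on the same array. The log2 difference of Cox4i1 from Slc2a4 had an SD of 0.09, and 6 of the 14535 pairs of probes had a smaller one. Cox4i1 was picked for its high r, which favours a small SD, so this rank adds no separate support. Quantile normalization, which gives all arrays the same set of values, turned this r to -0.47 and raised the SD of the difference to 0.40. Cox6a2 had r = 0.96 and Ucp3 0.96 with Slc2a4, and under quantile normalization 0.53 and 0.80.

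The Slc2a1 pattern was most like those of Fn1 (fibronectin, a matrix protein), Ucp3 and Ldhb (the heart-type subunit of lactate dehydrogenase). Fn1 stood at r = 0.97 with Slc2a1 (exact permutation p = 0.0014, the smallest that 720 pairings can give, adjusted 0.48; Spearman 1.0, exact p = 0.0028, adjusted 0.56). It was 0.99 without replicates 1 and 2, and between 0.92 and 1.00 over the other settings. Fn1 was represented by a second probe, which was not above 0 on every array. Ucp3 had r = 0.95 with Slc2a1 and was 3.23 to 3.64 times as bright on each array. The SD of that log2 difference was 0.08, and 3 of the 14535 pairs had a smaller one. Ucp3 was likewise picked for its high r, so this rank adds no separate support. Ldhb had r = 0.92, which was 0.54 with arrays scaled to equal totals.

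**Figure D4:**
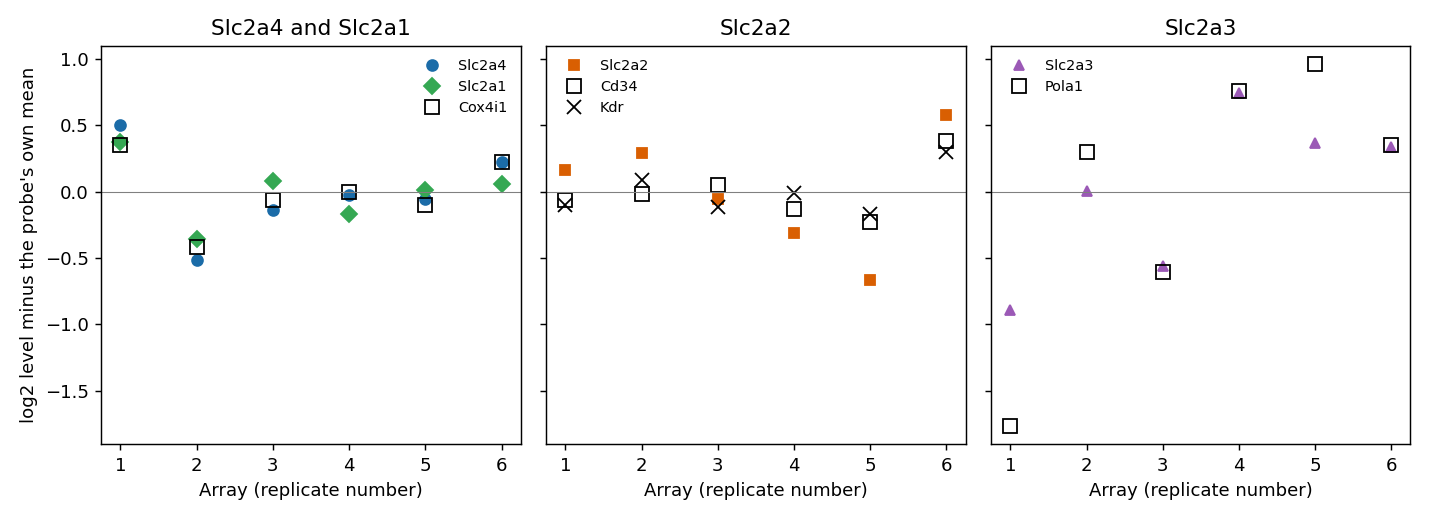
Deviation of the log2 level from each probe's own mean on the 6 arrays, for Slc2a4 and Slc2a1 with Cox4i1 (left), Slc2a2 with Cd34 and Kdr (middle) and Slc2a3 with Pola1 (right). Slc2a4, Slc2a1 and Cox4i1 are all highest on replicate 1 and lowest on replicate 2, whereas Slc2a2 is highest on replicate 6 and Slc2a3 lowest on replicate 1.

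The probes nearest to Slc2a2 were Cd34, a surface protein of endothelial and progenitor cells (r = 0.84, exact permutation p = 0.033, adjusted 0.49), Cast, the inhibitor of calpain proteases (r = 0.79), and Kdr, the main receptor for vascular endothelial growth factor (r = 0.79). Without replicates 5 and 6, the arrays farthest from the Slc2a2 median, r was 0.44 with Cd34 and 0.29 with Kdr, so these relations rest on those arrays. Of the endothelial markers, 5 of 6 were probed and measured on every array, and their summed unscaled intensity lay between 0.0698 and 0.0871. It was 0.0711 on replicate 1, where total intensity was 37.5 against 15.3 to 18.5 on the rest. Besides Kdr, the r of these markers with Slc2a2 ran from -0.30 (Flt1) to 0.25 (Tek), with adjusted exact p-values of 0.83 and above. The part of vessel RNA in the Slc2a2 signal was not tested. In the table the 4 transporters have consecutive probe identifiers, and Slc2a2 stands between Slc2a4 and Hadh, a beta-oxidation enzyme deposited at 0.0571 to 0.0756. Slc2a2 correlated with these at 0.14 and 0.39 (exact p = 0.82 and 0.44), and no source used here says whether identifiers follow positions on the array.

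Slc2a3 was most like Pola1, the catalytic subunit of DNA polymerase alpha (r = 0.94, exact permutation p = 0.0069, adjusted 0.48), Tfam, the mitochondrial transcription factor (r = 0.92), and Gip, an incretin hormone gene (r = 0.88). Without replicates 1 and 3 these became 0.60, 0.55 and 0.78. Pola1 and Tfam exceeded the noise size on 5 of 6 arrays, so this likeness joins dim probes. The Hk1 pattern was closest to Rpa2, a subunit of the single-strand DNA binding protein (r = 0.95, exact permutation p = 0.0069, adjusted 0.48; Spearman 1.0, exact p = 0.0028, adjusted 0.56), whose values of 0.0012 to 0.0045 exceeded the noise size on every array and were 1.0 to 1.5 times those of Hk1. Tfrc, the transferrin receptor (r = 0.91), and Adam2, a sperm surface protein (r = 0.79), came next. Without replicates 5 and 6 they stood at 0.16 and 0.29, and Rpa2 at 0.93. Insr was most like Capn3, the muscle calpain (r = 0.81), Eno2, an enolase (r = 0.76), and Pparg, a fat cell nuclear receptor (r = 0.74), with adjusted exact p-values of 0.51 to 0.54. Capn3, at 0.0003 to 0.0026, exceeded the noise size on 4 of 6 arrays.

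Correlations of the transporters with fibre markers differed in sign between transporters and depended on replicate 1 and on the scaling. Slc2a4 had positive r with all 6 probed fibre markers, from 0.46 for Myh1 to 0.94 for Myh4, the fast type IIb myosin, and so had Slc2a1, from 0.51 for Myh1 to 0.91 for Des. Slc2a3 had negative r with each of them, from -0.81 for Mb to -0.49 for Myh4. For Slc2a2 they ran from -0.11 to 0.70, positive for 5 of 6 markers, and positive for 2 without replicate 1 and for 1 under equal totals. Summed without scaling, these markers reached 6.61 on replicate 1, against 2.29 to 3.01 on the rest. Total intensity over all probes was likewise 37.5 there, against 15.3 to 18.5 on the rest. Without replicate 1 the sign held for 4 of 6 markers with Slc2a4 and with Slc2a1, and for 3 of 6 with Slc2a3. It held for 5 and 2 of 6 with Slc2a4 and Slc2a1 under quantile normalization and for 4 each with the lowess curve, a smooth trend on level taken out of each array. Under equal totals it held for 5 of 6 each, and the negative sign with Slc2a3 for 3 of 6. Of 4 fat markers the 2 probed (Fabp4 and Lipe) summed to 0.0895 on replicate 1, against 0.0256 to 0.0379 on the rest, also without scaling. Lipe was above 0 on 5 arrays and at most 0.0055, and Fabp4 lay between 0.0255 and 0.084, so the sum was mostly Fabp4. No pair of a transporter and a marker passed the adjusted threshold, and the part of fibre or fat RNA in these patterns was not tested.

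Downstream of hexokinase, all 10 probed glycolytic genes of a list of 31 were above 0 on every array, as were 76.7% of all probes. The noise size was exceeded throughout by 9 of them, against 60.1% of all probes. The exception was Pfkfb2, the regulator that makes fructose 2,6-bisphosphate. The median SD of the 10 glycolytic genes was 0.44, against 0.53 for the 6 genes and 0.48 for all measured probes. Pgk1, phosphoglycerate kinase, was at 2.16 ± 0.21 (SD, n = 6), the smallest SD of the list under median centring, and Pdha1, the pyruvate dehydrogenase subunit that feeds pyruvate to mitochondria, was at 3.31 ± 0.25. Without centring the SD of Pgk1 was 0.35 and that of Pdha1 0.38, and Ldhc, the testis-type lactate dehydrogenase subunit, had a smaller one of 0.23. The r of the 10 genes ran from -0.36 (Pfkfb2) to 0.93 (Ldhb) with Slc2a4 and from -0.32 (Pfkfb2) to 0.92 (Ldhb) with Slc2a1, positive for 7 of 10 in each case. Without replicate 1, Ldha turned from 0.27 to -0.72 with Slc2a4 and from 0.34 to -0.62 with Slc2a1. Ldhc turned the other way, from -0.17 to 0.30 and from -0.24 to 0.21, and no other sign changed. Gapdh, the glyceraldehyde phosphate dehydrogenase, had r = 0.84 with Slc2a4 and 0.81 with Slc2a1, and Ldhb 0.93 with Slc2a4. With equal totals these were 0.61, 0.36 and 0.76, and without replicate 1 they were 0.69, 0.61 and 0.86. Over all 6 arrays none passed the adjusted threshold (adjusted exact p = 0.49, 0.49 and 0.48). Hexokinase II and the other hexokinases of the list were not probed, nor was any of 7 glycogen genes.

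Upstream, the signalling list held 4 probed genes of 20. Igf1r, the receptor related to Insr, was above 0 on 5 arrays and above the noise size on 1, so both receptors of this family were near background. Igf2r, the scavenging receptor, was at -0.06 ± 0.36 (SD, n = 6), and the ligands Igf1 and Igf2 were at 1.59 ± 0.47 and 2.59 ± 0.63. A second, dimmer Igf1 probe, also above 0 on every array, was at 1.11 ± 0.63. The SD of Igf2r was 0.21 and that of Igf2 0.42 without replicate 1. Igf2 had r = -0.89 with Slc2a4 (adjusted exact p = 0.49), which was -0.19 with equal totals.

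Transcription factors known to act on transporter or hexokinase genes were measured for all 8 probed of a list of 17. Mef2c, which with Mef2a binds the Slc2a4 gene in muscle, was at 3.48 ± 0.11 (SD, n = 6) and Mef2a at -0.16 ± 0.26. Hif1a, the oxygen-regulated factor that acts on Slc2a1, was at -1.88 ± 0.34 and its partner Arnt at 0.31 ± 0.20. The SD of Mef2c was 0.40 without centring. The correlations of Mef2c and Mef2a with Slc2a4, and of Hif1a and Arnt with Slc2a1, each changed sign with the scaling. Myod1 was at -1.15 ± 0.25, Ppara at 0.09 ± 0.15, Srf at 1.64 ± 0.89 and Pparg at -0.86 ± 0.81, the last falling to an SD of 0.26 without replicate 2. No factor passed the adjusted threshold with any of the 6 genes.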

How the data were processed

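The deposited table holds the authors' intensity of each of 223 probes on 6 arrays. From its values it is linear and background-subtracted, with 171 of 1338 values at or below 0. The sources used here name no scanner, background method or reference for the scale. Probes were named through the supplied platform annotation: 1 symbol for 205, none for 18. All 6 gene numbers are in the RefSeq table of mouse genes.

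Probes above 0 on all arrays (171) were put on the log2 scale, and each array's median over them was subtracted. Correlations used all 720 pairings, two-sided, with Benjamini-Hochberg adjustment over 1005 pairs at 0.05 (numpy 2.4.6, pandas 2.3.3). The script was tested on simulated data. For genes with 2 probes the brighter was used. Named are the 6 genes, the 3 nearest annotated probes of each, and the probed genes of 4 lists (glycolysis, glycogen, insulin and insulin-like growth factor signalling, transcription factors). Hadh and markers named singly were chosen after their values were seen. The members and lists were chosen with earlier results of these data known. The alternatives were no centring, equal totals, quantile normalization, a lowess curve (statsmodels 0.14.6), an added noise size, 2 other filters and leaving out each array. The number of arrays limits the precision.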

Additional observations from a re-analysis of the deposited data

Results flagged for a closer look

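For the 6 genes and the 15 differences between them, no array stood apart by Dixon's ratio (critical value 0.625 with 6 arrays). The levels of 5 other named genes and 3 sums had a higher ratio. Pparg had a ratio of 0.737, with a level of 0.73 on replicate 2 and of -1.44 to -0.87 on the remaining 5 arrays. Replicate 2 also held the highest Insr level, -1.14. In the other cases replicate 1 stood apart. Flt1, a vascular growth factor receptor, had a ratio of 0.824, with a level of -2.15 there and of 0.30 to 0.82 elsewhere. The slow and fast myosins Myh7, Myh2 and Myh1 were high there, with ratios of 0.729, 0.659 and 0.638. So were total intensity (0.855), the fibre marker sum (0.833) and the fat marker sum (0.808), the last mostly Fabp4. The marker sums are of unscaled intensity and so include any brightness shared by the whole array. The median over all probes differed less than total intensity did, at 0.0061 on replicate 1 and 0.0036 to 0.0055 on the rest. Chance gives such a ratio in about 1 group in 20, and 15.8% of the 171 measured probes had one.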

How the results depend on the processing

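The brightness order of Slc2a4, then Slc2a2, then Slc2a1 and Slc2a3 held under quantile normalization, the lowess curve and the added noise size. It also held without each array, except that Slc2a1 and Slc2a3 changed places without replicate 1. No centring, equal totals and the 2 other filters shift all probes of an array alike, so they could not change the order. Hk1 and Insr, near background, have no order, and fall away above the 25th percentile of level. Levels shift with the probes that set the median. Without the filter the level of Slc2a1 was -0.23 and that of Slc2a4 2.30. Restricted to probes beyond the 25th percentile of level, the table gave Slc2a1 at -1.31, Slc2a2 at 0.43, Slc2a3 at -1.47 and Slc2a4 at 1.21. Without centring the SD of Slc2a1 was 0.46 and that of Slc2a4 0.54. With the noise size added, the SD of Hk1 was 0.42, that of Insr 0.67 and the Slc2a4 minus Slc2a1 difference 2.32. That difference had an SD of 0.15 to 0.20 under the settings that could change it and with each array left out. The settings that shift a whole array cancel in it. The correlation of Slc2a4 with Slc2a1 ranged from 0.77 to 0.96, and that of Slc2a4 with Cox4i1 was -0.47 with quantile normalization; the cause was not tested. An added measure, chosen after seeing the data, took the root mean square of the values below 0 as noise. By it 5 of the 6 genes exceeded noise on every array, Hk1 included and Insr not. This measure is lower than the noise size on every array. The share of all probes that exceed it is not given here, so the count of 5 has no background to be read against. No paired analysis was possible because 1 group was deposited.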
